A study of Mus musculus with 18 samples.

Results

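Id3-deficient (KO) and wild-type (WT) mouse CD4 T cells of the libraries numbered set 6 were compared across every gene measured: 3 KO libraries (treatment label ID6.KO) against 3 WT libraries (treatment label WT6.WT), 6 of the 18 libraries of the series and 12547 genes. All groups had been grown alike: naive CD4 T cells were stimulated through CD3 and CD28 with antibody-coated beads, in IMDM with 10% serum, IL2 and IL12 at 10 ng/ml each and 10 ug/ml of an antibody to IL4, a mixture that drives cells towards the Th1 fate. The other 12 libraries were KO and WT cells of sets 3 and 5, also with 3 libraries per group. The labels do not say what a set number stands for, how the Id3 allele was made, how old the mice were, or whether the replicates came from separate mice or cultures, so p-values reflect only how much these libraries vary, which may be technical. In the authors' deposited table of comparisons the contrast names attach 96 to sets 5 and 6 and 24 to set 3, with no unit.

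Id3 belongs to the Id proteins, helix-loop-helix factors without a DNA-binding domain. Id proteins pair with the E proteins (Tcf3, Tcf4 and Tcf12) and keep them from binding E-box motifs in DNA. In T cells the Id and E proteins take part in lineage choice, in the maintenance of memory and stem-like states, and in effector differentiation. Th1 cells are helper T cells that rely on the transcription factor T-bet (Tbx21) and on signals from IL12 and IL18, and that secrete interferon gamma.

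The deposited values were log2 counts whose sorted values were 98.4% identical among the 3 KO libraries and 97.9% among the 3 WT libraries, so the depth of each library was unknown. Each library's lowest value, 1.0 to 1.07, was shared by 149 to 229 genes. The median was 9.66 in each KO library and 9.25 in each WT library, a shift of 0.41, and 82.0% of genes stood higher in KO as deposited. Differences below are therefore KO minus WT after each library's median was subtracted (relative to the median gene), on the log2 scale, with standard errors (SE) and Benjamini-Hochberg adjusted p-values of limma. Only genes past an adjusted p of 0.05 with the same sign on this scale and as deposited are said to have risen or fallen; values given per library are as deposited. The levels of different genes are not comparable, because the values were not divided by gene length.

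KO and WT differed in 4669 genes (37.2% of the 12547 tested) relative to the median gene, 2353 higher (18.8%) and 2316 lower (18.5%). As deposited, 7336 genes differed (58.5%), 6760 higher (53.9%) and 576 lower (4.59%). All of the 2353 higher genes also passed as deposited and so rose (18.8%), whereas 576 fell on both scales (4.59%) and 1740 were lower relative to the median gene only. Of the latter, 137 were higher past the test as deposited. The shift of 0.41 adds to every difference as deposited, so asking for both scales removed only lower genes. The imbalance of 2353 that rose to 576 that fell is set by that shift. A difference of at least 1 past the test was found in 1156 genes (9.21%), 707 higher (5.63%) and 449 lower (3.58%), and 371 of the latter fell on both scales. The centred KO and WT values did not overlap in 2275 of the genes that rose and in 573 of those that fell, against 51.1% of all genes tested. Principal component analysis of the 6 libraries separated KO from WT on component 1 (59.6% of the variance), with KO replicate 2 at -31, nearest to the WT libraries, and KO replicates 1 and 3 at -51.7 and -47.6.

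**Figure D1:**
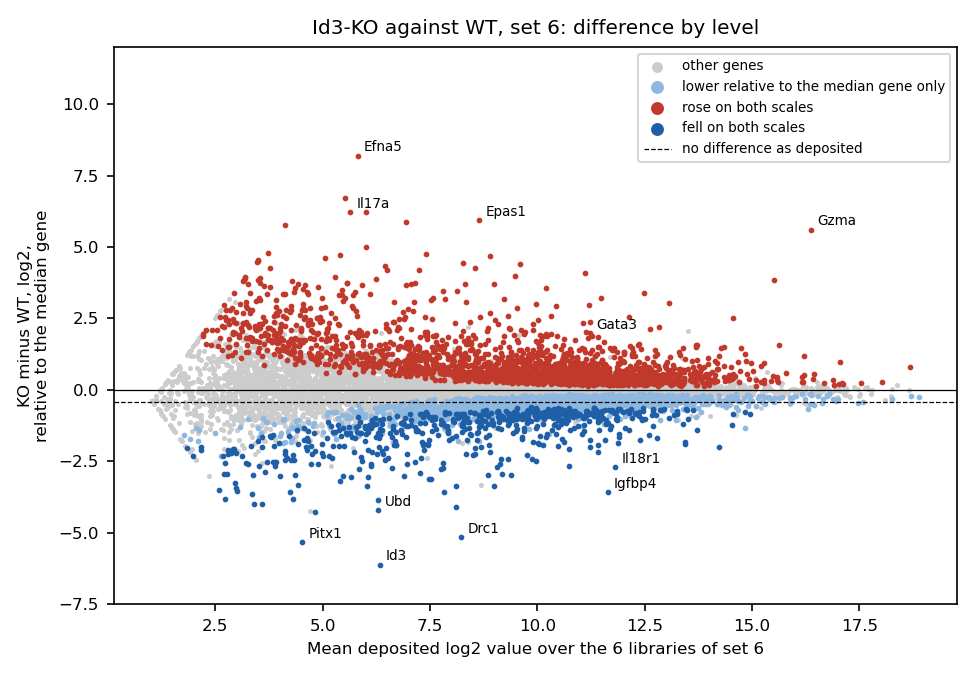
Each point is a gene: its mean deposited log2 value over the 6 libraries (x axis) against KO minus WT on the log2 scale relative to the median gene (y axis). Red genes rose and dark blue genes fell on both scales, light blue genes were lower relative to the median gene only, and the dashed line, 0.41 below 0, marks no difference as deposited.

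The targeted gene was read first. Id3 was at 1.0, 4.97 and 4.46 in KO replicates 1 to 3 and at 9.49, 9.16 and 8.89 in WT. Every KO library lay below every WT library, with KO replicate 1 at that library's lowest value and the other KO libraries above theirs. The difference was -6.12 (SE 0.89; adjusted p = 8.94e-05) relative to the median gene and -5.70 as deposited. Of the Id and E family 6 genes were measured, and besides Id3 only Id2 passed relative to the median gene. Id2, the other Id protein abundant in effector T cells, rose. Id2 was at 15.70, 15.89 and 15.93 in KO and at 14.41, 14.62 and 14.73 in WT, with no overlap (difference 0.84, SE 0.16, adjusted p = 0.000658). The E proteins did not pass relative to the median gene: Tcf3 differed by -0.03 and Tcf12 by -0.10, both higher past the test as deposited (0.38 and 0.31), and Tcf4 by 0.06. Id1 differed by 0.50 and did not pass either (adjusted p = 0.227).

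The 15 largest rises covered genes of varied function. They were chosen among genes whose centred KO and WT values did not overlap. Efna5 encodes ephrin A5, a membrane-anchored ligand of Eph receptors. Efna5 was at 10.22, 9.63 and 10.51 in KO and at 2.01, 1.19 and 1.32 in WT, so every KO library lay far above every WT library (difference 8.20, SE 0.41, adjusted p = 3.81e-09). Gzma encodes granzyme A, a serine protease of cytotoxic granules. Gzma was at 19.49, 19.17 and 19.49 in KO and at 12.49, 13.91 and 13.67 in WT, again with no overlap (difference 5.61, SE 0.55, adjusted p = 3.47e-06). Epas1 encodes HIF-2 alpha, an oxygen-regulated transcription factor. Epas1 was at 11.81, 11.56 and 12.08 in KO and at 5.48, 5.62 and 5.27 in WT, the libraries of each group lying close together (difference 5.95, SE 0.45, adjusted p = 2.98e-07). The cytokine gene Il17a was at 10.12, 8.0 and 8.76 in KO and at 2.17, 2.74 and 2.03 in WT, with more spread among KO libraries than among WT libraries (difference 6.23, SE 0.86, adjusted p = 6.13e-05).

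Of the other 11 among the 15 largest rises, Fabp4, a fatty acid binding protein of lipid-storing cells and macrophages, differed by 6.71 and Penk, the precursor of the enkephalin peptides, by 4.77. Il1r2, the decoy receptor that binds IL1 without signalling, differed by 4.43, and Rnf128, the ubiquitin ligase GRAIL linked to T cell anergy, by 4.40. St6galnac1, a sialyltransferase, differed by 5.0 and Slc17a6, a vesicular glutamate transporter, by 4.78. Fam240a (6.24), Sval1 (4.72) and Tmie (4.35) completed the set together with Cstdc4 (5.88) and Csta2 (4.68), members of the stefin A cluster of cysteine protease inhibitors. The stefin A genes are near-identical copies, and how reads were divided among them is uncertain. In all 15 the lowest KO library stood above the highest WT library, which the condition of no overlap required. WT was at the library's lowest value in 2 of 3 libraries for Slc17a6. It was there in 1 of 3 for Fabp4, Fam240a, Cstdc4 (SE 1.25) and Sval1, so the sizes of these rises are less certain. A further 5 genes were at the library's lowest value in all 3 WT libraries and are given by level only: Pth, the parathyroid hormone gene (8.36, 6.09 and 7.17 in KO), Stfa2 (7.13, 5.34 and 5.48), Grp (5.69, 5.12 and 7.06), Krt80 (5.32, 5.96 and 6.44) and Adamtsl3 (5.81, 5.28 and 5.01).

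The 15 largest falls covered genes of varied function and were chosen under the same condition of no overlap. Pitx1 encodes a homeobox factor of limb and pituitary development. Pitx1 was at 1.87, 1.86 and 2.48 in KO and at 7.32, 6.93 and 6.67 in WT, with no overlap (difference -5.32, SE 0.37, adjusted p = 1.23e-07). Igfbp4, a binding protein of insulin-like growth factors that also marks naive T cells, was at 9.65, 10.91 and 9.61 in KO and at 13.33, 13.26 and 13.06 in WT. KO replicate 2 was the closest to WT, as it also was for Drc1 and Ubd (Igfbp4 difference -3.57, SE 0.46, adjusted p = 3.54e-05). Drc1, a structural component of motile cilia, was at 4.18, 8.23 and 5.16 in KO and at 10.67, 10.74 and 10.38 in WT (difference -5.16, SE 0.78, adjusted p = 0.000129). Ubd encodes the ubiquitin-like protein FAT10, which is induced by interferon gamma and TNF. Ubd was at 4.23, 5.81 and 3.15 in KO and at 8.56, 8.01 and 8.05 in WT (difference -4.22, SE 0.68, adjusted p = 0.000215). The other 11 differed by -4.11 to -3.37. They were Ggt1 (glutathione breakdown, -4.11), Gldc (the glycine decarboxylase, -3.99), Setbp1 (-3.85), the peptide transporter Slc15a1 (-3.81), the sialomucin Podxl (-3.66), the glycogen phosphorylase Pygl (-3.56), Samd3 (-3.56), the sodium channel Scn9a (-3.54), the catenin Ctnnd2 (-3.44), Serpinb5 (-3.38) and the ATP-gated channel P2rx3 (-3.37).

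**Figure D2:**
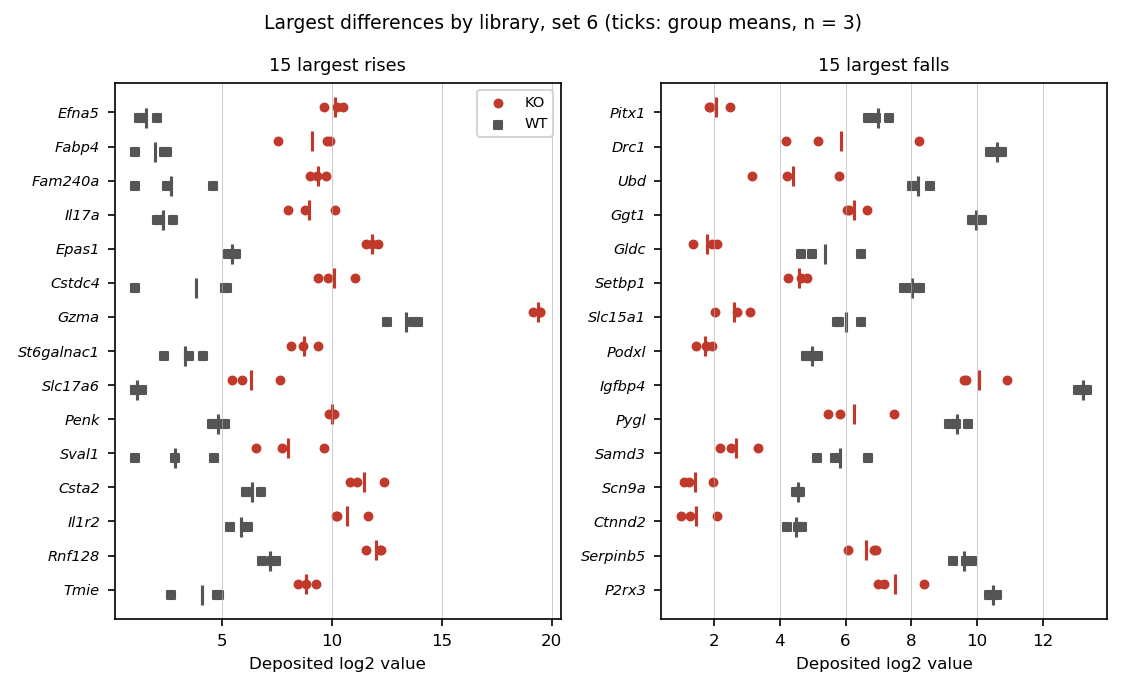
Deposited log2 values (x axis) of the 15 largest rises and the 15 largest falls, 1 row per gene, with circles for the 3 KO libraries, squares for the 3 WT libraries and a vertical tick for each group mean. In every row the KO points and the WT points stay apart, since only genes without overlap of centred values were chosen. Drc1 in KO runs from 4.18 to 8.23.

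E proteins bind E-boxes, so the bases upstream of the start sites were searched for 2 E-box motifs. The motifs were CAGCTG, which is its own reverse complement, and CAGGTG on both strands, and they were searched in the 250 bases before the start of 7945 of the 12537 gene symbols, those with a single RefSeq promoter used here (build GRCm38.p6). CAGCTG occurred in 11% of all these windows, in 12.1% of the 1441 windows of genes that rose and in 13.5% of the 347 of genes that fell. CAGGTG occurred in 15.2%, 16.2% and 19.3%. Of 20 windows of the largest rises and falls, 3 held CAGCTG and 5 held CAGGTG. A match is no evidence of binding, and these shares were not tested. The windows of Gzma, Drc1 and Id2 are printed 5′ to 3′ on the gene's strand to show where such matches lie beside a gene that rose by several units, one that fell by several units and the related Id gene; the 3 were chosen after their values were seen, and capitals mark the E-box matches.
Gzma (chr13:113100982-113101231, minus strand): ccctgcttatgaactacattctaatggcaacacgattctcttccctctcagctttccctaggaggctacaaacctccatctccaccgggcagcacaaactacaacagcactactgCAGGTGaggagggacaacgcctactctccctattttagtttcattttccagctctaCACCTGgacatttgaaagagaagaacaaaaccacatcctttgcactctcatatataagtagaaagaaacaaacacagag
Drc1 (chr5:30281143-30281392, plus strand): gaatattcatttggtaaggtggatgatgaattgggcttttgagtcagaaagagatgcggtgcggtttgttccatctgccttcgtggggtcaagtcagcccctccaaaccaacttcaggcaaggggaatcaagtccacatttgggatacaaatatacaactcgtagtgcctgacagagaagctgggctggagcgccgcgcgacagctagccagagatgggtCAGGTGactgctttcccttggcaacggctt
Id2 (chr12:25096093-25096342, minus strand): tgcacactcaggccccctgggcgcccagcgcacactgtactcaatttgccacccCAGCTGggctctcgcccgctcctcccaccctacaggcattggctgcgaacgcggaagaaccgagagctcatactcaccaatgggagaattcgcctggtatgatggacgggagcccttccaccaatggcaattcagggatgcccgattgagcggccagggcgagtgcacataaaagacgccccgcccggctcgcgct
The matches begin 135 and 79 bases before the start site in Gzma, 30 bases before it in Drc1 and 196 bases before it in Id2.

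Most genes listed for the Th2 programme, the helper fate that the antibody to IL4 is added to block, rose. Of 22 measured members 18 rose and 1 was lower relative to the median gene (81.8% and 4.55%, against 18.8% and 18.5% of all genes), with a median difference of 1.67 where that of all genes was 0. The list includes Epas1, already named among the largest rises. This list and those below were chosen with earlier results of these data known, so their shares are no independent support. The counts of each list below are to be read beside 18.8% and 18.5%. Gata3, the defining transcription factor of Th2 cells, was at 12.58, 12.28 and 12.42 in KO and at 9.92, 10.11 and 10.04 in WT. The groups stood over 2 units apart as deposited and each group spanned less than 0.4 (difference 1.99, SE 0.11, adjusted p = 2.81e-08). The Th2 cytokine Il13 was at 10.88, 10.59 and 10.92 in KO and at 7.77, 7.87 and 7.79 in WT, also without overlap (difference 2.58, SE 0.37, adjusted p = 7.85e-05). Il4 was at 11.86, 11.44 and 11.81 in KO and at 9.18, 9.89 and 9.50 in WT (difference 1.77, SE 0.46, adjusted p = 0.00661). Il24 rose by 3.40, Il31 by 2.95, Il5 by 2.14, the factor Maf by 1.46 and the IL4 receptor chain Il4ra by 1.31. Areg, an epidermal growth factor receptor ligand, rose by 3.72. Il10, at 14 to 14.20 in KO and 12.46 to 12.69 in WT, differed by 1.11 and did not pass relative to the median gene (adjusted p = 0.074); over the alternative settings its adjusted p ran from 0.000217, with the 6 libraries of set 6 fitted alone, to 0.208. The member that was lower, Stat6, the signal transducer of the IL4 receptor, differed by -0.24. It stood higher as deposited by 0.17 (adjusted p = 0.0351). At replicate 1 in the blocked fit Stat6 did not pass (adjusted p = 0.106) and no member was lower. Here and in the lists below, the blocked fit is the one with replicate numbers blocked within genotype. Its counts are for the difference at replicate 1, not for the mean over libraries.

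For the Th1 programme, 6 of 27 measured members rose, 7 fell on both scales and 2 more were lower relative to the median gene. This was 22.2% higher and 33.3% lower, against 18.8% and 18.5% of all genes, with a median of 0.00. The largest fall of the list was in Il18r1. Il18r1, the binding chain of the IL18 receptor, was at 10.05, 11.13 and 10.87 in KO and at 12.82, 12.86 and 13.18 in WT, with no overlap (difference -2.69, SE 0.34, adjusted p = 3.26e-05). The surface protein Ly6c2 fell by 1.70, Il18rap, the partner chain of Il18r1, by 1.39, the IL12 receptor chain Il12rb2 by 1.32 and Stat4, which the IL12 receptor activates, by 0.80. Cxcr3, the chemokine receptor of Th1 cells, fell by 1.21. The chemokine Ccl5 fell by 1.11 (adjusted p = 0.007, and 0.00371 to 0.0741 over all alternatives). The highest, 0.0741, was for the difference at replicate 1 in the blocked fit. Among the rises was Ifngr2, the signalling chain of the interferon gamma receptor, at 8.72, 8.52 and 8.54 in KO and 4.75, 5.06 and 6.25 in WT. All KO libraries exceeded all WT libraries for Ifngr2 (difference 2.83, SE 0.41, adjusted p = 8.66e-05), and Irf1, an interferon-induced factor, rose by 1.48 and Il12rb1 by 0.97. At replicate 1 in the blocked fit 3 of the members were higher and 10 were lower.

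The defining pair of Th1 cells moved less than these. Tbx21 was at 9.22, 9.74 and 9.46 in KO and at 9.28, 9.45 and 9.22 in WT, so the groups overlapped as deposited (difference -0.26, SE 0.15, adjusted p = 0.202). Over the alternative settings the adjusted p of Tbx21 ran from 0.00737 to 0.959. The lowest came from the blocked fit, where the difference at replicate 1, not the mean over libraries, was -0.49. Ifng was at 15.38, 14.78 and 16.25 in KO and at 14.77, 14.56 and 14.65 in WT. KO replicate 3 stood highest and KO replicate 2 close to WT, and the difference of 0.40 (SE 0.32) did not pass relative to the median gene (adjusted p = 0.344), while as deposited the difference of 0.81 had an adjusted p of 0.0366.

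Of 19 measured genes of the Th17 programme 7 rose and none was lower in this fit (1 when WT replicate 1 was left out), with a median of 0.48. Besides Il17a, these included Batf, an AP-1 partner factor needed for Th17 cells. Batf was at 13.86, 13.49 and 13.49 in KO and at 10.59, 10.79 and 10.61 in WT, with no overlap and little spread within groups (difference 2.54, SE 0.17, adjusted p = 9.49e-08). Il21, a cytokine of Th17 and follicular helper cells, rose by 2.59 and Stat3 by 0.46. The receptor genes Il23r and Ccr6 differed by 0.11 and -0.24 and did not pass.

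**Figure D3:**
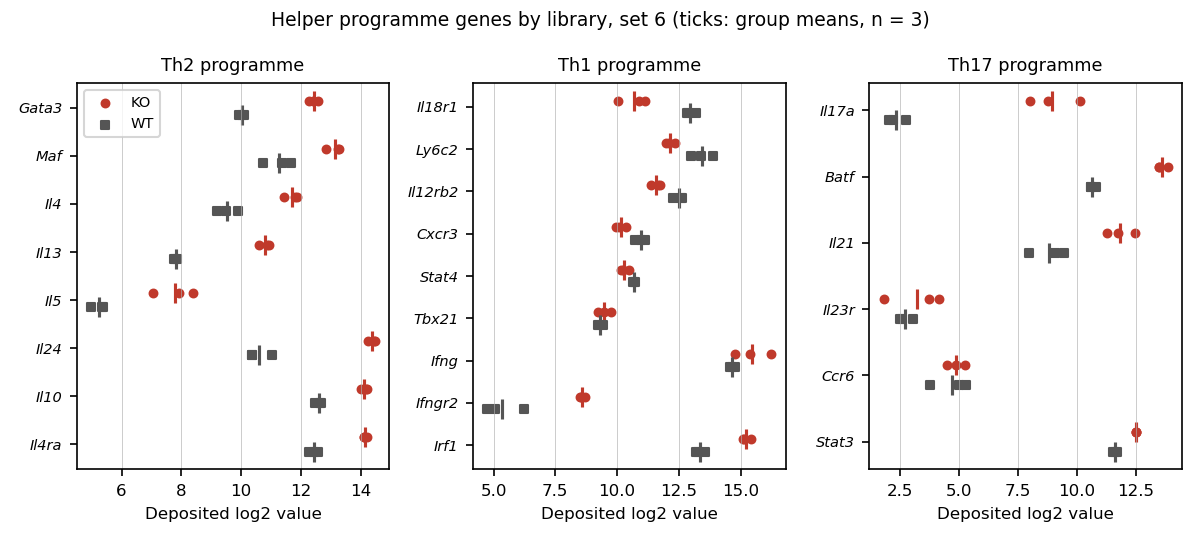
Deposited log2 values (x axis) of chosen members of 3 helper programmes, 1 row per gene, with circles for the 3 KO libraries, squares for the 3 WT libraries and ticks for group means. Gata3, Il13 and Batf lie apart in KO and WT; Il18r1 lies to the left in KO; Tbx21, Il23r and Ccr6 overlap between KO and WT.

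Regulatory T cell genes were more often higher, with 9 of 18 rising and 2 lower relative to the median gene (1 or 0 without 1 library: 1 without any KO replicate, 0 without WT replicate 2 or 3). Ikzf4, the factor Eos, rose by 1.21, the folate receptor Izumo1r by 1.96 and the costimulatory receptor Tnfrsf4 (OX40) by 0.62. Foxp3, the defining factor of these cells, was at 6.66, 5.65 and 6.5 in KO and at 5.11, 5.21 and 4.98 in WT, and its difference of 0.76 did not pass relative to the median gene (adjusted p = 0.0743), except without KO replicate 2 (1.07, adjusted p = 0.0179; 0.00509, as deposited, to 0.276 over all alternatives). Follicular helper genes moved in both directions, with 4 of 15 rising and 5 falling (26.7% and 33.3%, against 18.8% higher and 18.5% lower of all genes). The lineage factor Bcl6 was at 3.27, 4.41 and 4.16 in KO and at 5.80, 5.71 and 5.48 in WT, with no overlap (difference -2.13, SE 0.38, adjusted p = 0.00047). Btla, an inhibitory receptor, fell by 2.76 and the factor Tox by 2.58, whereas its relative Tox2 rose by 3.23 and the costimulator Icos by 0.72.

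Among 28 naive, memory and stem-like genes 9 fell, Id3 included, 3 more were lower relative to the median gene and 4 rose. That made 14.3% higher and 42.9% lower, against 18.8% and 18.5% of all genes. Txk, a kinase of resting T cells, was at 7.59, 8.23 and 8.30 in KO and at 10.26, 9.98 and 10.41 in WT (difference -2.59, SE 0.23, adjusted p = 1.22e-06). The factor Lef1 fell by 1.01 and Klf2, a regulator of T cell trafficking, by 1.01. Against this, Als2cl rose by 2.36, Ets1 by 0.80 and the chromatin organizer Satb1 by 0.74.

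Of 25 cytotoxic molecules 6 rose, 3 fell and 3 more were lower relative to the median gene (24.0% higher and 24.0% lower, near the 18.8% and 18.5% of all genes). Besides Gzma, the protease inhibitor Cst7 (cystatin F) was at 14, 13.74 and 13.89 in KO and at 11.19, 11.45 and 11.41 in WT, the groups well apart (difference 2.12, SE 0.16, adjusted p = 3.62e-07). Klrg1, a receptor of terminal effector cells, rose by 2.28 and Lamp1, a lysosomal membrane protein, by 0.62. Slamf7 fell by 1.81 and the NK receptor chain Klrd1 by 1.55. Granzyme B (Gzmb) was at 18.24, 18.57 and 18.24 in KO and at 18.03, 18.28 and 18.10 in WT, and perforin (Prf1) at 8.19 to 9.16 and 8.42 to 8.81; neither passed (differences -0.20 and -0.26). Of 25 inhibitory receptor and exhaustion genes 11 rose, 3 fell and 1 more was lower relative to the median gene; in the fit blocked within genotype 2 were lower. Irf4, a factor induced by T cell receptor signals, rose by 1.42 (SE 0.10, adjusted p = 2e-07), Cd274 (PD-L1) by 2.03 and Havcr2 (TIM-3) by 1.81. Pdcd1 (PD-1) was at 8.51, 8.16 and 8.28 in KO and at 8.05, 8.13 and 8.52 in WT and did not pass (difference -0.33).

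Genes of homing and tissue residency rose in 11 of 27 cases and fell in 4, with 1 more lower relative to the median gene. Itgae (CD103), the integrin chain that binds epithelial cadherin, was at 10.31, 9.81 and 10.10 in KO and at 5.92, 7.01 and 6.84 in WT. KO and WT libraries did not overlap (difference 3.07, SE 0.42, adjusted p = 5.65e-05). Rgs1, which dampens chemokine receptor signals and marks resident T cells, rose by 2.52, Itgb3 by 1.54 and the chemokine receptor Ccr2 by 1.69. Zfp683 (Hobit), a factor of resident lymphocytes, fell by 2.56 (6.04, 7.53 and 6.58 in KO; 8.81, 9.04 and 8.75 in WT), and the integrin chain Itgb1 by 1.42. Of 16 chemokines 4 rose and 2 were lower relative to the median gene (25.0% and 12.5%, against 18.8% and 18.5% of all genes). Of the 2, 1 was lower on both scales. The number that rose was 1 without KO replicate 1 or 3 and 2 without WT replicate 1 or 3. The number lower was 1 without KO replicate 1 or 3, or else WT replicate 2 or 3, and 0 in the fit blocked within genotype.

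Of 31 cytokine receptors 12 rose, 4 fell and 1 more was lower relative to the median gene. Besides the genes above, Crlf2, the receptor chain for thymic stromal lymphopoietin, rose by 1.26. Among 24 other cytokines and growth factors 4 rose and 3 fell, with 3 more lower relative to the median gene. These shares, 16.7% higher and 25.0% lower, were near the 18.8% and 18.5% of all genes. Tnfsf11 (RANKL) was at 8.12, 7.95 and 7.59 in KO and at 9.22, 9.64 and 9.57 in WT, with no overlap (difference -2.00, SE 0.31, adjusted p = 0.000157). Cd40lg, the ligand by which helper T cells activate B cells, fell by 1.32 and Vegfa by 0.85, while Csf1 rose by 1.26 and Tgfb1 by 0.60. JAK, STAT and SOCS genes rose in 11 of 22 cases (7 without KO replicate 3 or without WT replicate 1), with 2 falling and 1 more lower relative to the median gene. Jak2 rose by 1.25, Stat2 by 1.19, the feedback inhibitor Socs1 by 0.90 and the kinase Pim1 by 0.81, whereas its relative Pim2 fell by 1.83 (12.58, 13.08 and 12.54 in KO; 14.22, 14.13 and 14.12 in WT).

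Signalling from the T cell receptor was represented by 34 genes, of which 11 rose, 1 fell and 3 more were lower relative to the median gene. The kinase Prkcq rose by 0.56, the exchange factor Sos1 by 0.58 and the adaptor Lcp2 by 0.52. Ptpn6 (SHP-1), a phosphatase that restrains the receptor, fell by 1.16 (SE 0.14, adjusted p = 2.29e-05). Of 29 immediate early and AP-1 genes 14 rose and 3 fell. Dusp10, a phosphatase acting on JNK and p38, was at 11.60, 11.38 and 12.06 in KO and at 8.19, 8.46 and 8.13 in WT (difference 3.01, SE 0.18, adjusted p = 3.48e-08). Dusp4, a phosphatase acting on ERK, rose by 1.76 and Junb by 0.85, while the ERK inhibitor Spry1 fell by 1.94, Irf8 by 1.45 and Myc by 0.96.

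Targets and subunits of NF-kB, the factor family activated by T cell receptor and TNF receptor signals, rose in 21 of 28 cases, and 1 was lower relative to the median gene (75.0% and 3.57%; median 0.70). Many of them encode inhibitors that NF-kB itself induces. Tnfaip3 (A20) was at 14.19, 13.92 and 14.35 in KO and at 11.42, 11.66 and 11.54 in WT, the groups more than 2 units apart as deposited (difference 2.20, SE 0.17, adjusted p = 3.36e-07). Nfkbia, the inhibitor I-kappa-B alpha, was at 15.41, 15.06 and 15.42 in KO and at 13.42, 13.37 and 13.39 in WT (difference 1.49, SE 0.13, adjusted p = 8.64e-07). Nfkbie rose by 1.34 and the subunit Relb by 0.96. A kappa-B core, GGANTTTCC on either strand, occurred in the 250 bases upstream of 1.12% of all genes with a single promoter, of 2.29% of the 1441 that rose and of 0.865% of the 347 that fell. Of 18 listed NF-kB genes 2 held it, Icam1 and Nfkbia. The window of Nfkbia, which held it more than once, is shown with the matches, 178 and 29 bases before the start site, in capitals.
Nfkbia (chr12:55492648-55492897, minus strand): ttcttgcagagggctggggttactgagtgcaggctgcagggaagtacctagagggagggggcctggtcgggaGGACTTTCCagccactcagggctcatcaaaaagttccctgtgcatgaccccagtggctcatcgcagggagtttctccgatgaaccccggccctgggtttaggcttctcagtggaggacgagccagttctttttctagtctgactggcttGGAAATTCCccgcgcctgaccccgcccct

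Antigen presentation genes rose in 15 of 22 cases (68.2%; median 0.71), and none was lower, also with any single library left out. The class I heavy chain gene H2-K1 was at 17.61, 17.68 and 17.93 in KO and at 16.13, 16.50 and 16.43 in WT, with no overlap (difference 0.97, SE 0.13, adjusted p = 3.84e-05). H2-Q4 rose by 1.05 and the peptide transporter Tap1 by 0.52. The class I genes are closely related in sequence, and how reads were divided among them is uncertain. Members of the class II pathway rose too: H2-DMa, which loads peptides, by 1.58 and the invariant chain Cd74 by 2.01 (10.73, 11.01 and 11.04 in KO; 8.26, 8.5 and 8.75 in WT). Of 37 interferon-stimulated genes 11 rose, 1 fell and 3 more were lower relative to the median gene. The number that rose was 7 without KO replicate 3 or without WT replicate 1, and the number lower was 2 without KO replicate 1 or without WT replicate 2 or 3. Irgm1, a GTPase of defence within cells, rose by 1.26, Irf9 by 0.95 and Bst2 by 0.52, and Ifit3b fell by 1.66.

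Cholesterol synthesis genes were mostly lower in KO. None of 26 rose, 16 fell on both scales and 5 more were lower relative to the median gene (80.8% lower; median -0.83, and -0.42 as deposited). Hmgcs1, which makes HMG-CoA at the entry of the pathway, was at 11.61, 12.03 and 11.56 in KO and at 13.20, 12.92 and 13.06 in WT, with no overlap (difference -1.74, SE 0.16, adjusted p = 2.11e-06). Pmvk (-1.29) and Idi1 (-1.04), which act further along the pathway, also fell. A sterol response motif, TCACNCCAC on either strand, occurred in 0.793% of all windows of 250 bases, in 0.763% of those of genes that rose and in 1.44% of those of genes that fell; 1 of 16 listed cholesterol genes held it. The window of that gene, Hmgcs1, is shown with the match, 137 bases before the start site, in capitals.
Hmgcs1 (chr13:119690101-119690350, plus strand): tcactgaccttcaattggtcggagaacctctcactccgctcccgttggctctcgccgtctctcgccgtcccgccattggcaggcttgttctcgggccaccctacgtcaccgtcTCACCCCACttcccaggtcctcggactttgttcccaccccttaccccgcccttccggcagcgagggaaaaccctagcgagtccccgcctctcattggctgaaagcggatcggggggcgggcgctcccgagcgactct

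Of 29 fatty acid genes 6 fell, 12 more were lower relative to the median gene and 2 rose (1 in the fit blocked within genotype). As deposited 6 were higher and 6 lower, with a median of -0.01, so the direction of this list rests on the centring. Over all genes 53.9% were higher and 4.59% lower as deposited, with a median of 0.42. The desaturase Scd1 was at 8.16, 8.38 and 7.77 in KO and at 11.02, 10.45 and 10.52 in WT (difference -2.97, SE 0.55, adjusted p = 0.000622). The acyl-CoA synthetases Acsl6 and Acsl4 fell by 2.21 and 0.71 and the elongase Elovl6 by 1.18, while the transporter Slc27a1 rose by 1.12. Glycolysis and hypoxia genes were lower in 14 of 35 cases, 5 of them on both scales, and 2 rose; the number lower was 8 without KO replicate 3, 9 without WT replicate 2 or 3 and 9 in the fit blocked within genotype. The glucose transporter Slc2a3 fell by 1.27 and the lactate transporter Slc16a1 by 0.62. Hif1a, the hypoxia factor, was at 15.59, 15.41 and 15.70 in KO and at 13.97, 14.20 and 14.27 in WT, and rose by 1.0 (SE 0.18, adjusted p = 0.000447). The neuronal enolase Eno2 rose by 2.49.

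Several groups of growth and protein handling were lower relative to the median gene but rarely fell as deposited, so their direction rests on the centring. As deposited 53.9% of all genes were higher and 4.59% lower, with a median of 0.42. The counts as deposited, here and further below, are to be read beside these shares. Of 75 nuclear genes of oxidative phosphorylation 53 were lower relative to the median gene (70.7%), 1 of which fell on both scales, and 2 rose (1 without KO replicate 1 or 3, without WT replicate 2 or 3, or in the blocked fit); their median was -0.25, and as deposited 33 were higher with a median of 0.16. Of 13 mitochondrially encoded genes 6 were lower (3 without KO replicate 2) and none fell as deposited, where 3 were higher. Proteasome subunits were lower in 27 of 37 cases, of which 1, Psma4, fell on both scales by 0.66, while 12 were higher as deposited. Psmb9 rose by 0.28 and Psme2 by 0.37, both of which interferon is known to induce (neither without KO replicate 2 or WT replicate 1, 1 of them without any other library, and neither in the fit blocked within genotype). Aminoacyl-tRNA synthetases were lower in 13 of 21 cases, 1 of them on both scales, while 8 were higher as deposited, and 2 rose (1 without KO replicate 1 or 3, or without WT replicate 2 or 3). Ribosomal protein genes were lower in 20 of 78 cases (13 without KO replicate 1, 12 without KO replicate 3 and 13 in the blocked fit), and 6 rose, with a median of -0.04; as deposited 68 were higher and none lower.

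Genes of ribosome assembly were lower in 19 of 41 cases, and 4 of these fell, with none rising except 1 when WT replicate 1 was left out; as deposited 11 were higher and 4 lower, with a median of 0.08. The pseudouridine synthase Dkc1 fell by 0.86 and Nop16 by 0.78. Heat shock proteins were lower in 13 of 26 cases, 3 of them on both scales, while 11 were higher as deposited; Hsp90aa1 fell by 0.79 and the chaperonin subunit Cct5 by 0.69, and 1 member rose (none without KO replicate 1 or without WT replicate 2 or 3, and 2 in the blocked fit). Serine, one-carbon and ATF4 genes were lower in 11 of 34 cases (7 without WT replicate 1), 4 of them on both scales, and 6 rose, while 13 were higher as deposited. Genes of the unfolded protein response went the other way, with 11 of 31 rising and 1 lower relative to the median gene (2 without KO replicate 1 or 2, without WT replicate 3, or in the blocked fit). The stress sensor Ern1 was at 9.30, 9.35 and 9.48 in KO and at 7.60, 7.38 and 7.72 in WT (difference 1.40, SE 0.24, adjusted p = 0.0004), and Dnajb9 rose by 0.76 and Atf6 by 0.53.

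Of 41 mitosis genes none rose and 1 was lower relative to the median gene (0 without WT replicate 1), while 8 were higher as deposited. Over all genes 53.9% were higher and 4.59% lower as deposited. Of 43 DNA replication genes 3 rose and 9 were lower relative to the median gene, whereas as deposited 30 were higher and none lower, so their direction rests on the centring. The replication gene count that rose ranged from 1, without KO replicate 3 or WT replicate 3, to 6, without KO replicate 2 or WT replicate 2, and the count lower was 5 without WT replicate 1 or 2. Among 25 genes of G1 control 8 rose, 1 fell (Myc) and 4 more were lower relative to the median gene, while 16 were higher as deposited; the retinoblastoma relative Rbl2 rose by 0.92 and Cdk2 by 0.36. Of 47 genes listed as replication-dependent histones, a class whose transcripts largely lack poly(A) tails, 2 rose and 4 were lower. These counts moved between 0 and 2 and between 1 and 6 when libraries were left out, and to 0 and 1 in the blocked fit. However, 1 of the 2 that rose was H1f0 (0.74), a linker histone gene that is not replication-dependent. Among 23 p53 targets and CDK inhibitors 4 rose (2 without KO replicate 3) and 8 were lower, 2 of them on both scales; the latter count was 5 without KO replicate 1 or WT replicate 1, 4 without WT replicate 3 and 3 in the blocked fit, and as deposited 10 were higher and 2 lower. Gadd45b, a stress gene that NF-kB induces, rose by 1.42, Btg2 by 0.65, and Sesn1 fell by 0.87. Of 28 genes of the BCL2 family and cell death 5 rose (3 without WT replicate 1, 8 in the blocked fit) and 5 were lower relative to the median gene (3 without WT replicate 1 or 2). Both shares, 17.9%, were near the 18.8% higher and 18.5% lower of all genes. As deposited 17 of these genes were higher and none lower. The survival gene Mcl1 rose by 0.64, Bcl2a1b by 1.21 and the kinase Ripk1 by 0.43, while Bcl2 differed by 0.14 and did not pass. Bcl2a1b is one of several near-identical copies, so its share of reads is uncertain.

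**Figure D4:**
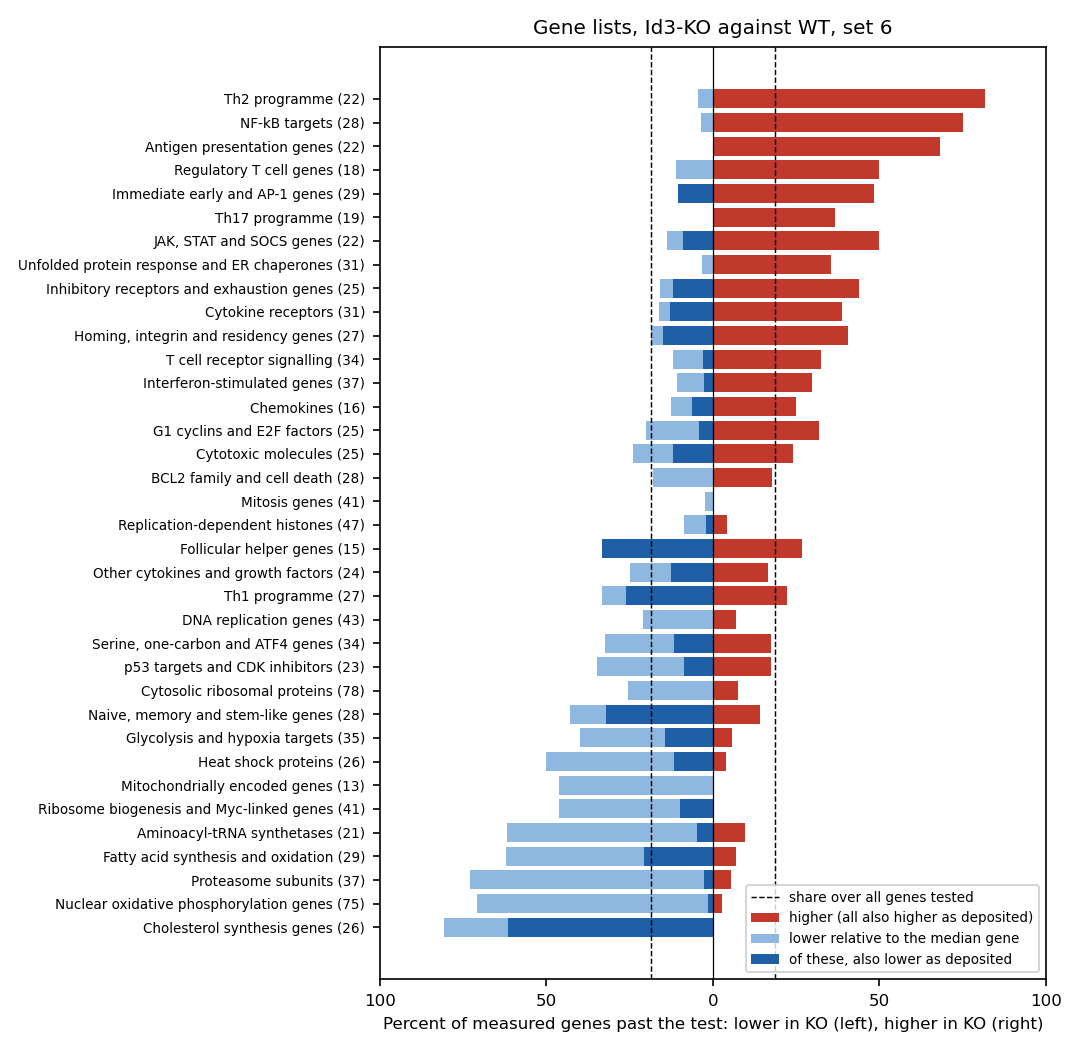
For each gene list, with the number of measured genes in brackets, bars to the right give the percent higher in KO and bars to the left the percent lower, both past the test relative to the median gene; dark blue is the part also lower as deposited. Dashed lines mark 18.8% and 18.5%, the shares over all genes tested. Th2 and NF-kB genes reach 81.8% and 75.0% to the right and cholesterol genes 80.8% to the left. The lists were chosen with earlier results of these data known.

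The libraries carried the markers of CD4 T cells. Cd3e was at 13.84 to 14.10 in KO and 13.55 to 13.85 in WT and did not pass relative to the median gene (difference -0.15), and Cd4 was at 13.35, 13.14 and 13.17 in KO and 12.14, 12.24 and 12.53 in WT and rose by 0.50. In bulk samples fewer cells of a type and less RNA per cell cannot be told apart. Markers of other cells are given by their counts and summed levels. The sums are of deposited values, so they carry the shift of 0.41, and they add genes whose levels are not comparable. Most of the dendritic sum in KO is Bst2 and Cst3 (means 13.14 and 12.79). Most of the macrophage sum is Cd68 (10.25) and most of the stromal sum is Pecam1 (11.47). Of 8 B cell markers none passed in this fit and 1 rose in the blocked fit, and their summed level was 6.55 to 7.64 in KO and 5.82 to 6.33 in WT. The summed level of 11 NK cell markers was 9.44 to 10.64 in KO and 9.64 to 10.13 in WT, with 1 higher (0 without KO replicate 1 or 3, or else WT replicate 1 or 2) and none lower (1 without KO replicate 1 or 3, or in the blocked fit), and that of 2 CD8 T cell markers, neither past the test (1 lower without WT replicate 1), was 8.58 to 9.09 and 8.24 to 9.40. Of 2 markers of gamma delta and NKT cells, Zbtb16 (PLZF), a factor of innate-like T cells, was at 6.02, 5.87 and 6.19 in KO and 2.45, 3.27 and 4.06 in WT and rose by 2.35. The 7 macrophage and monocyte markers summed to 10.46 to 10.66 in KO and 8.73 to 9.55 in WT; 3 rose, Adgre1 by 3.55 and Cd68 by 1.04 among them, none was lower (1 without WT replicate 2), and Lyz2 was at the lowest value in all 6 libraries. The 6 dendritic cell markers summed to 14.07 to 14.16 in KO and 13.31 to 13.40 in WT, with 2 risen (1 without KO replicate 1 or 2, or else WT replicate 1 or 2) and 1 lower relative to the median gene. Summed levels of 10 granulocyte and mast cell markers were 8.03 to 9.57 in KO and 7.78 to 8.30 in WT, with Kit falling by 3.05 and Mcpt4 and Tpsb2 at the lowest value throughout; 1 rose (0 without KO replicate 1 or 3, or else WT replicate 1 or 2). Erythroid markers (8) summed to 6.86 to 7.57 and 6.54 to 7.33, with 2 higher (1 without KO replicate 1 or WT replicate 3) and 2 lower (0 without WT replicate 1, 1 without KO replicate 2 or 3, or else WT replicate 2 or 3, and 1 in the blocked fit). Platelet markers (3) to 4.64 to 7.07 and 4.67 to 7.03, and stromal and endothelial markers (5) to 11.45 to 11.84 and 9.87 to 10.16. Of the last, Krt18 rose by 2.86 and Pecam1, which T cells also express, by 1.19, and Kdr fell by 2.23. The part of such cells in the results above was not tested.

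The KO effect of set 6 was then set against that of set 5, with KO and WT libraries of its own whose deviations went together with those of the same-numbered libraries of set 6 within each genotype. The difference between the effects passed in 0 of 12547 genes by limma (0.0%), 1246 had an unadjusted p under 0.05, and the lowest adjusted p was 0.155. With the replicate number of sets 5 and 6 blocked within genotype 0 passed and 1726 had an unadjusted p under 0.05. Without the block, 1 passed when WT replicate 3 of set 5 was left out. That 0 passed does not show that the effects were equal. The median absolute difference between the effects was 0.19. Of the 4669 genes past the test in set 6, 3951 were past it in the same direction in set 5 (84.6% of set 6 and 63.6% of the 6217 of set 5) and 9 in the opposite direction. Of the 30 largest rises and falls, 26 could be compared, since each WT library of set 5 had Il17a, St6galnac1, Sval1 and Csta2 at its lowest value. The set 6 effect minus the set 5 effect ran from -2.25 (Drc1) to 4.55 (Fabp4) among the 26, lay within 1 unit of 0 in 17, and passed in none by limma (lowest adjusted p 0.347). Efna5 differed by 8.20 in set 6 and 8.47 in set 5, Gzma by 5.61 and 7.07, Epas1 by 5.95 and 5.50, and Fabp4 by 6.71 and 2.15. In the KO libraries of set 5 Il17a was at 4.34, 1.0 and 4.82, all below those of set 6, and Csta2 at 12.23, 9.85 and 9.80, beside 12.37, 11.13 and 10.80 in set 6.

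Against set 3 the KO effect of set 6 differed in 3010 genes (24.0%), 1597 higher in set 6 (12.7%) and 1413 lower (11.3%). Of the 4669 genes of set 6, 423 were past the test in the same direction in set 3 (9.06% of set 6 and 32.2% of the 1315 of set 3) and 170 in the opposite direction. The loss of Id3 was alike by value, -6.12 in set 6 and -6.73 in set 3, and their difference did not pass (adjusted p = 0.76). Efna5 differed by 8.20 in set 6 and 4.55 in set 3, a difference of effects of 3.65 (SE 0.57; adjusted p = 0.000566). Fam240a differed by 6.24 and 0.89, Ldhd, a D-lactate dehydrogenase, by 3.74 and -0.84, and Tnfsf13b (BAFF), a survival factor of B cells, by 2.89 and -0.84, and all 3 effects were higher in set 6 past the test. Ubd went in opposite directions, -4.22 in set 6 and 2.96 in set 3 (difference of effects -7.18, SE 0.96, adjusted p = 0.00019), as did Samd3 (-3.56 and 2.53) and Serpinb1a (-2.92 and 3.03). Cdkn2a, a cell cycle inhibitor, was higher by 3.89 in set 3 and lower by -1.38 in set 6 relative to the median gene (difference of effects -5.27, SE 0.62). Its value in set 6 did not pass without KO replicate 1 (-1.35), WT replicate 1 (-1.30) or WT replicate 3 (-1.29). The difference at replicate 1 in the blocked fit (-1.56) did not pass either (adjusted p = 0.117). That was the highest adjusted p of its alternatives, which began at 0.000778.

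By group, effects that were higher in set 6 than in set 3 included 12 of the 28 NF-kB genes (1 lower), 11 of the 34 T cell receptor genes (1 lower), 9 of the 29 immediate early genes (3 lower) and 8 of the 22 antigen presentation genes (1 lower). Effects lower in set 6 than in set 3 included 29 of the 41 mitosis genes, 16 of the 26 cholesterol genes, 23 of the 75 oxidative phosphorylation genes and 16 of the 37 proteasome subunits, with 0, 0, 1 and 4 higher. Cholesterol genes had a median of -0.83 in set 6 and -0.19 in set 3. Mitosis genes had a median of -0.13 in set 6 and 0.80 in set 3. Of the 22 Th2 genes 4 effects were higher and 4 lower in set 6, with medians of 1.67 and 2.34. Of 25 cytotoxic molecules 12 effects were lower and 3 higher in set 6. Markers of other cells differed between the sets as well: 7 of 10 granulocyte and mast cell markers had lower effects in set 6 and none a higher one (medians -0.40 and 3.84), and 3 of 8 erythroid markers had lower effects and none a higher one (medians -0.09 and 2.80). Their part in the differences from set 3 was not tested.

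**Figure D5:**
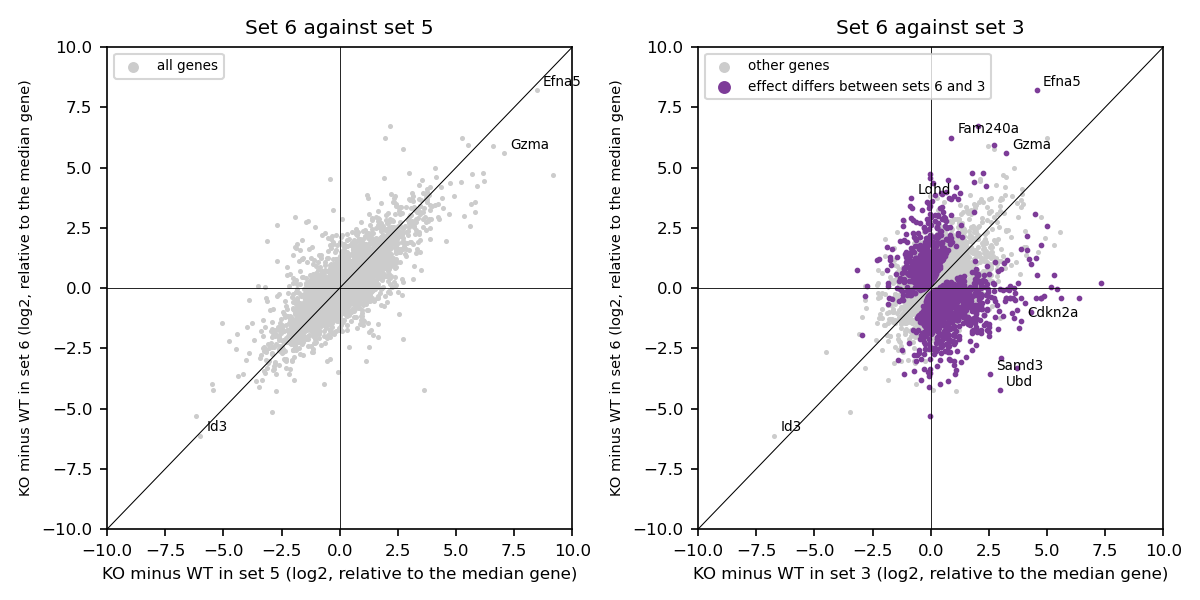
KO minus WT of each gene in set 6 (y axis) against the same in set 5 (left) and in set 3 (right), both on the log2 scale relative to the median gene; the diagonal marks equal effects and purple genes had effects that differed between sets past the test. No gene is purple against set 5; against set 3, Id3 lies near the diagonal and Ubd and Samd3 lie in the opposite quadrant.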

How the data were processed

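RNA-seq of mouse CD4 T cells was analysed from log2 counts per gene that the authors deposited, with 3 libraries in each of 6 groups; groups were taken from the treatment labels. Per the submitters' processing notes Salmon 1.9.0, edgeR, limma and the build GRCm39 were used, with no roles given, and the equalization within groups was found in the values. That the values are on a log2 scale was taken from their range and, per the file headers, their name, and the depth behind them is unknown. The authors' deposited table of comparisons also holds moderated t scores, log2 fold changes and p-values. For KO against WT of set 6, the authors' deposited table holds 4410 genes with an adjusted p under 0.05, 4150 of them higher and 260 lower; 4400 of these also passed among the 4419 of limma's test against a fold of 1.2 on the deposited values.

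Each library's median was subtracted, and limma 3.58.1 (R 4.3.3) fitted the 6 group means to 18 libraries (12 residual degrees of freedom, moderated tests with a variance trend, Benjamini-Hochberg adjustment over 12547 genes, threshold 0.05). The same fit on the values as deposited stands beside it. The 30 genes at the lowest value in all 6 libraries were not called. The fit was tested on simulated data with 200 genes changed, far fewer than the 4669 called in set 6. It recovered 52%, 56%, 86% and 98% of changes of 0.5, 1, 2 and 4, and called 5 unchanged genes. A gene that did not pass may therefore still differ. Named genes were the 15 largest rises and falls and 5 genes at the lowest value throughout a group. These had centred KO and WT values without overlap and a mean of at least 4 in the higher group. Up to 3 genes were named per list and direction, with the defining genes of each list, and the 8 largest differences between sets. Those differences required no overlap in set 6 or in the other set. Other list members were named after their values were seen. The members and the gene lists were chosen with earlier results of these data known. Correlations of deviations from group means were -0.061 to 0.007 for KO and WT of set 6 with the same number, so these were not treated as pairs. For sets 5 and 6 with the same number they were 0.222 to 0.341 in KO and 0.115 to 0.156 in WT, against -0.255 to -0.075 and -0.095 to -0.034 for other numbers; this pairing comes from the data, not the labels, and the fit blocked within genotype was added after the data were seen. The block within genotype took replicate 1 as its reference, so its effects in set 6, also against set 3, are differences at replicate 1. Its difference between sets 5 and 6 is not affected by this. Alternatives were other centring, filters, moderation, weights, a minimum fold, blocks and leaving out each library. Promoters came from RefSeq on GRCm38.p6 and were matched by symbol. Tables and figures were made with Python 3.11.15, pandas 2.3.3, numpy 2.4.6 and matplotlib 3.10.9. Some members of the gene lists are not reported here by name.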

Additional observations from a re-analysis of the deposited data

Results flagged for a closer look

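The KO effect differed between set 6 and set 3, by the limma test of the difference itself, for 20 of 24 of the largest rises and falls of set 6 and for 12 further genes that were chosen for this difference, a count that the choice fixes. Over all genes the share was 24.0%, and among 175 other named list genes 114 differed. The 24 were chosen for the size of the set 6 effect and the list genes by their adjusted p in set 6. The set 6 effect is part of the tested difference, so the choice raises both shares. They cannot be compared fairly with 24.0%. Genes at the lowest value throughout a group of set 6 or 3 were left out; single libraries at it remain, as in 2 of 3 WT libraries for Slc17a6. Values are the set 6 effect minus the set 3 effect, on the log2 scale relative to the median gene, over 3 libraries per group, and every adjusted p is below 0.05.

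Among the largest rises of set 6 the effect was higher in set 6 by 5.35 for Fam240a, 4.27 for Tmie, 3.65 for Efna5 and 3.23 for Epas1. For Slc17a6 it was 3.0, for Rnf128 2.54, for Penk 2.52 and for Gzma 2.4. Gzma and Slc17a6 lay nearest to the threshold, with adjusted p-values of 0.036 and 0.0362.

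Among the largest falls of set 6 the difference was -7.18 for Ubd, -6.09 for Samd3, -4.61 for Setbp1, -4.61 for Pygl, -4.46 for Serpinb5 and -4.41 for Gldc. It was -4.04 for Ggt1, -3.58 for Podxl, -3.41 for Slc15a1, -3.1 for P2rx3, -2.73 for Ctnnd2 and -2.42 for Igfbp4.

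Chosen for the size of the difference itself, Ldhd (4.59), Olfr1444 (4.01), Ampd1 (3.9), Tex45 (3.75), Tnfsf13b (3.73) and Adgre1 (3.69) had higher effects in set 6. Ampd1, AMP deaminase of muscle, differed by 0.73 in set 6, which did not pass, and by -3.17 in set 3. Lower effects in set 6 were found for the haemoglobin gene Hba-a1 (-7.03), Serpinb1a (-5.96), Nupr1 (-5.46), Cdkn2a (-5.27) and the mast cell and basophil proteases Cma1 (-5.44) and Mcpt8 (-5.31). In set 6 alone Cma1 differed by -0.02 and Mcpt8 by -1.0 and neither passed, so these differences rest on set 3, where they were 5.42 and 4.31. Nupr1, a stress gene, was lower by -1.65 in set 6, and this did not pass without KO replicate 1 (-1.39) or WT replicate 3 (-1.58). Hba-a1, at 4.53, 1.07 and 3.30 in KO and 5.46, 5.58 and 6.63 in WT, passed in set 6 (-3.33) but not without KO replicate 2 (-2.39) or 3 (-3.50) or any WT replicate (-3.55, -3.49 and -2.96). Whether cells other than T cells contribute to Hba-a1, Cma1 and Mcpt8 was not tested.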

How the results depend on the processing

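Where 4669 genes passed relative to the median gene, 1763 passed a test against a fold of 1.2 and 1156 had a difference of at least 1, while 7336 passed as deposited. Leaving out 1 library gave 3516 to 4413, and the replicate block shared by KO and WT of a set gave 4655. The block within genotype (sets 5 and 6) gave 4133. That count, and its counts below as deposited and against set 3, are for the difference at replicate 1. As deposited, the 7336 became 4419 and 1845 under those minimum sizes and 4669 with median centring, with 6679 to 6903 when 1 library was left out and 7397 and 6095 under the blocks. The difference from set 5 gave 0 genes, 0 to 1 when 1 library was left out and 0 under both replicate blocks. The difference from set 3 gave 3010 genes, 1060 and 1065 under the minimum sizes, 6302 as deposited, 2203 to 3028 with 1 library left out and 2978 and 3054 under the blocks. All other settings kept each count within 1.5 times. As deposited, 4 named genes past the test on that scale changed sign: Tcf3 (0.38), Tcf12 (0.31), Cd3e (0.26) and Stat6 (0.17), which follows from the shift of 0.41. Hba-a1 changed sign (0.31) in the replicate block within genotype, which gives the difference at replicate 1 and not the mean over libraries. That block changed no call of a named gene other than those of Hba-a1, Ccl5, Cdkn2a, Tbx21, Stat6, Psmb9 and Psme2, and the block shared by KO and WT, whose libraries share only a number, ended those of Cdkn2a and Hba-a1. Of 163 named genes past the test, 5 lost it without at least 1 library. The depth of each library is unknown, so no counting error could be set beside these values.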
